A study of Mus musculus with 6 samples.

Results

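The SLC25 family of mitochondrial solute carriers was described in the liver of young mice that lack the acyl-CoA binding protein ACBP, encoded by Dbi. Its members here were all genes whose symbol in the array's annotation starts with Slc25a and a digit, without Slc25a1, Slc25a13, Slc25a15 and Slc25a20. This gave 40 genes of the 18193 genes that have a probe set with a single symbol, and each was read on the brightest of its probe sets by the mean of the 6 arrays. Livers came from fed C57BL/6JBomTac mice aged 21 days, either ACBP-/- (KO) or +/+ (wildtype, WT), killed in the morning on removal from the mother. Each genotype had 3 samples, and each sample pooled the RNA of 5 mice in equal parts, so that differences between single mice cannot be seen. The labels used here give neither the sex of the mice nor the part of the gene that was deleted.

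Most SLC25 proteins sit in the inner mitochondrial membrane, which is closed to charged molecules, and each moves a small set of solutes across it, often by exchanging one for another. They supply the matrix with ADP, phosphate and coenzymes, export ATP and intermediates, and link the urea cycle, gluconeogenesis and lipid synthesis of the liver cell to the respiratory chain. ACBP binds long-chain acyl-CoA esters in the cytosol.

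Values are log2 signals of Affymetrix probe sets, and a difference is the mean of the 3 KO pools minus the mean of the 3 WT pools on that log2 scale. A probe set was tested if the deposited detection calls gave it as Present on at least 3 of the 6 arrays, and it was called if its limma p, adjusted by Benjamini-Hochberg over all 22482 tested probe sets, was below 0.05. The smallest p that an exact two-sided permutation over the 6 pools can give for 1 gene is 0.1. Pools of whole liver do not tell fewer cells of a type from less RNA per cell.

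The targeted gene matched the labels. Dbi gave 15.94, 15.74 and 15.77 in the WT pools and 5.37, 5.32 and 5.15 in the KO pools on its brightest probe set, which was Absent in KO pools 1 and 3, so that its KO level is near or below the limit of detection and its fold is not a measured size. The other 3 Dbi probe sets, Present on all arrays, were called lower, with differences of -4.08 to -3.91. All 5 hepatocyte markers tested were uncalled, with differences of -0.03 to 0.06. The 6 arrays had 48.4% to 51.1% of probe sets Present. KO pool 3 had the lowest median log2 signal over tested probe sets, 6.81 against 7.01 and 6.95 in the other KO pools and 6.91 to 6.92 in the WT pools, and it was the lowest of the 3 KO pools at 67.8% of tested probe sets. The Y-linked transcript Eif2s3y was Absent in KO pool 1, at 1.16, and Present in every other pool at 6.97 to 8.69. The actin 3'/5' ratio was 2.18 to 2.19 in the WT pools and 2.34 to 2.35 in the KO pools. What these pool and array features contribute to the carrier values was not tested, other than by leaving out each pool and by quantile normalization and median centring.

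Among the SLC25 carriers, 1 rose in the KO livers and none fell. The one called was Slc25a47, a carrier known for its liver-enriched expression, at 1.22-fold of the WT level (log2 difference 0.29, SE 0.07, n = 3 pools per genotype, limma adjusted p = 0.0184). Of the 40 members, 33 were tested. The 1 called member is 3.03% of them, against 5.68% of all tested probe sets (2.68% higher and 3.0% lower in KO) and 7.25% of the 10580 genes tested on their brightest probe set. At an unadjusted limma p below 0.05 there were 10 members (30.3%), 8 of them higher in KO. Of all tested probe sets, 17.7% passed that bound. That share counts every tested probe set, not the brightest of each gene, and the share over genes was not computed.

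The differences were small across the family. They ran from -0.41 for Slc25a27 to 0.37 for Slc25a37, with a median of 0.05 against 0.02 over all tested genes, and the median size was 0.12 in both. On its brightest probe set no tested member differed by more than 0.5 on the log2 scale, a size that 4.60% of all tested genes passed. The 95% confidence interval lay within 0.5 on either side of 0 for 25 of the 33 members. In 9 members (27.3%) all 3 KO pools lay above all 3 WT pools, against 11.6% of tested probe sets, and in 3 members (9.09%) they all lay below, against 10.8%. Read on the brightest probe set like the members, 1388 of the 10580 tested genes had all KO pools above and 1330 had them below.

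**Figure D1:**
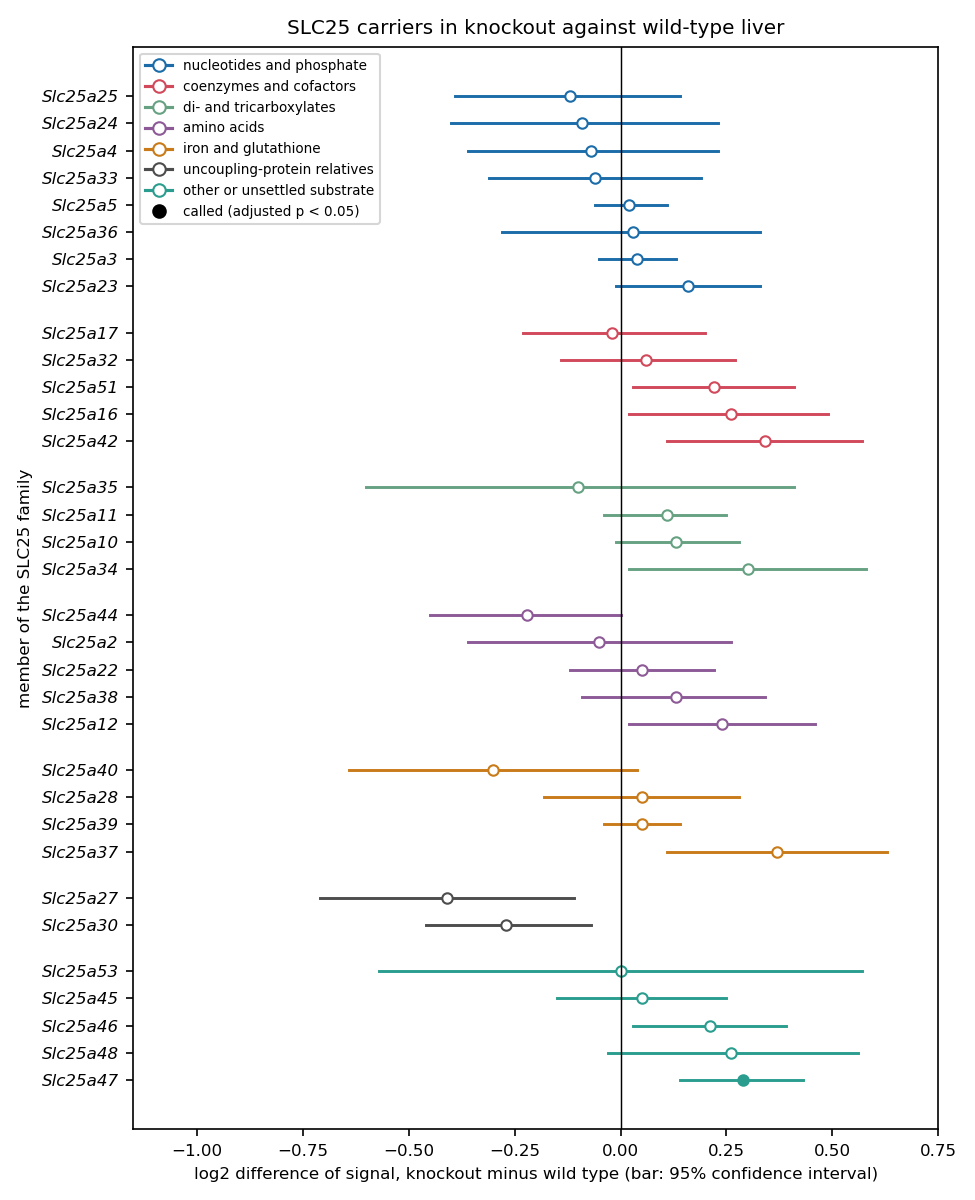
Each point is the log2 difference of signal, knockout minus wild type, of 1 tested member, with its 95% confidence interval as a bar, and colours mark the substrate groups. The filled point, Slc25a47 at 0.29, is the 1 called member, and all 33 points lie between -0.41 and 0.37.

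Slc25a47 was read on its single probe set, which was Present on all 6 arrays. Its log2 signal was 11.41, 11.28 and 11.46 in the WT pools and 11.56, 11.65 and 11.80 in the KO pools. Every KO pool lay above every WT pool, and the gap between the highest WT and the lowest KO pool was smaller than the spread within either group. The call did not hold in every setting: the adjusted p was 0.0508 with no detection filter, 0.0506 after quantile normalization, 0.117 after median centring and 0.225 without an intensity trend in the variance, and 0.0981 without WT pool 2. The log2 difference itself stayed between 0.22 and 0.34 in all of these and in the other alternatives run. In the authors' deposited table the same probe set has a p-value of 0.0311, a corrected p-value of 0.43 and an absolute fold change of 1.22.

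**Figure D2:**
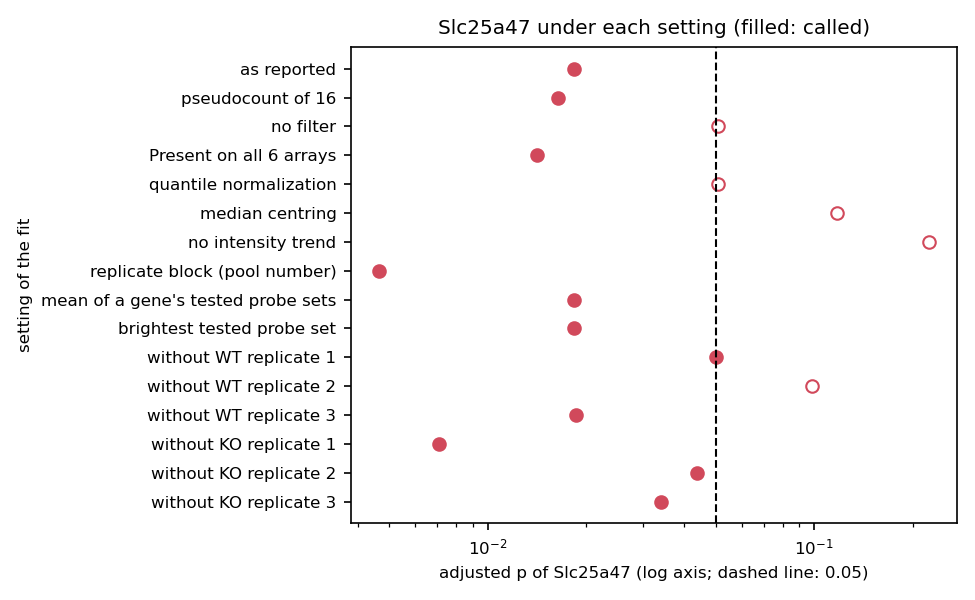
The adjusted p of Slc25a47 on a log axis is shown for the reported fit, the other settings and each pool left out, with a dashed line at 0.05 and filled points where it was called. It passes the line at 0.0508 and 0.0506 by a narrow margin in 2 settings and lies far from it, at 0.225, without the intensity trend.

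Promoter windows are printed for the 2 tested members with the smallest unadjusted limma p in these data. These were Slc25a47 (0.000653), the called member, and Slc25a42 (0.00577), which was not called. Both come from RefSeq (GRCm38.p6) and run 5′ to 3′ from 250 bases before to 50 bases after the annotated start, on chr12:108850879-108851178 (plus strand) and chr8:70212232-70212531 (minus strand). Capitals mark CCAAT, the core letters of the CCAAT box, and TTCCGG, core letters bound by many ETS factors, each read on both strands (ATTGG and CCGGAA on the other).
Slc25a47: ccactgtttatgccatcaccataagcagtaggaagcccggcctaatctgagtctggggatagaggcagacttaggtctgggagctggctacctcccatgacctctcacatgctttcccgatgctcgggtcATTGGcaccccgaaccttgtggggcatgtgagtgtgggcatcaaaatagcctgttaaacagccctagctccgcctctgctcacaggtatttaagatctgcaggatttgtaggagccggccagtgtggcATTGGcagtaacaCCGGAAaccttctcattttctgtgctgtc
Slc25a42: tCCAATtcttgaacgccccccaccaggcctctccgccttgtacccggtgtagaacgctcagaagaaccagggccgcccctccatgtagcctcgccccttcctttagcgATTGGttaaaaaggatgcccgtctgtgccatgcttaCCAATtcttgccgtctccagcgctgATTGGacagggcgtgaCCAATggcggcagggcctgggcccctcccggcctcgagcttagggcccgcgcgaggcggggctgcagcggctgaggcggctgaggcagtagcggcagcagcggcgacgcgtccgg
The Slc25a47 window held 2 CCAAT matches and 1 TTCCGG match, and the Slc25a42 window held 5 and 0. A window was at hand for 30 of the 40 members, 38 windows in all. CCAAT was in 50% of them, against 37.4% of 32851 windows of all genes, and TTCCGG in 26.3% against 14.9%. The oestrogen-related receptor letters TCAAGGTCA were in 0 of the 38 and in 0.423% of all windows. These matches describe letters in a window and are not binding sites.

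Carriers of nucleotides and phosphate bring ADP and phosphate to the ATP synthase and take ATP out. None of the 8 tested of 10 was called, and their median difference was -0.02, with a range of -0.12 to 0.16. Slc25a5, an ADP/ATP carrier and X-linked, was at 13.11, 13.14 and 13.20 in the WT pools and 13.16, 13.18 and 13.17 in the KO pools. These pools overlapped almost fully, and the interval of the difference was -0.06 to 0.11. Its 8 tested probe sets differed by 0.00 to 0.25, none of them called. Slc25a3, the carrier that imports phosphate for ATP synthesis, differed by 0.04 (95% interval -0.05 to 0.13), although its KO pools lay above its WT pools. Slc25a4, the other ADP/ATP carrier tested and the main form of heart and muscle, was at 9.77, 9.64 and 9.68 in the WT pools and 9.92, 9.81 and 9.16 in the KO pools. KO pools 1 and 2 were the highest of the 6 and KO pool 3 the lowest, so the difference was -0.07 with an interval of -0.36 to 0.23.

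The calcium-regulated carriers Slc25a23, Slc25a24 and Slc25a25 exchange ATP-Mg for phosphate and so set the size of the matrix adenine nucleotide pool. Slc25a23 differed by 0.16 (adjusted p = 0.304 by limma) with all KO pools above all WT pools, while Slc25a24 and Slc25a25 differed by -0.09 and -0.12 with overlapping pools. Slc25a33 and Slc25a36, which move pyrimidine nucleotides, differed by -0.06 and 0.03. Slc25a31, the ADP/ATP carrier of male germ cells, and Slc25a41, a relative of the ATP-Mg carriers, had no Present call on any array and were not tested.

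Carriers of coenzymes and cofactors had a median difference of 0.22 over 5 tested of 6, from -0.02 to 0.34, with none called. Slc25a42 imports coenzyme A in exchange for adenine nucleotides. Its log2 signal was 8.25, 7.96 and 8.09 in the WT pools and 8.42, 8.28 and 8.63 in the KO pools. All KO pools lay above all WT pools, KO pool 2 only just above WT pool 1, and the difference of 0.34 (SE 0.11, n = 3) had a limma adjusted p of 0.0811. Its second probe set, with no Present call, differed by -0.49.

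Slc25a51, the carrier that brings NAD into the matrix, differed by 0.22 (limma adjusted p = 0.199) with its KO pools at 9.94 to 9.96 and its WT pools at 9.54 to 9.93. The KO pools lay together just above the highest WT pool. Its 3 tested probe sets differed by 0.22, 0.22 and 0.34, and the smallest adjusted p among them was 0.0503. Slc25a16, whose yeast relative is linked to coenzyme A in the matrix, was at 9.05, 9.17 and 9.19 in the WT pools and 9.60, 9.49 and 9.09 in the KO pools. KO pool 3 lay among the WT pools and the other KO pools above them. Its difference was 0.26 (limma adjusted p = 0.226), and without KO pool 3 it was 0.41 (0.00371). Slc25a32, linked to folate and FAD transport, differed by 0.06 on its brightest probe set and by 0.10 and 0.56 on the other 2 tested (limma adjusted p = 0.226 for the last). Slc25a17, a peroxisomal carrier of coenzyme A, FAD and NAD, differed by -0.02. Slc25a26, which imports S-adenosylmethionine, was Absent on all arrays on its brightest probe set, and its dimmer, tested probe set differed by 0.41 (limma adjusted p = 0.330).

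Dicarboxylate carriers pass malate, succinate and oxoglutarate between matrix and cytosol, the route by which carbon leaves for glucose synthesis. All 4 were tested and none was called, with a median of 0.12 and KO pools above WT pools in 3 of the 4. That pattern was seen in 11.6% of all tested probe sets and in 1388 of the 10580 tested genes. Slc25a10, the dicarboxylate carrier, differed by 0.13 on its brightest probe set (95% interval -0.01 to 0.28) and by 0.11 on the other. Slc25a11, the oxoglutarate carrier of the malate-aspartate shuttle, differed by 0.11 (-0.04 to 0.25). Slc25a34, a relative of these with a less settled substrate, was at 5.74, 6.03 and 6.12 in the WT pools and 6.31, 6.24 and 6.23 in the KO pools. The KO pools lay close together above a wider WT group, and the difference was 0.30 (SE 0.13, limma adjusted p = 0.248). Slc25a35, its close relative, differed by -0.10 with an interval of -0.60 to 0.41.

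Amino acid carriers serve the urea cycle, the malate-aspartate shuttle and haem synthesis. None of the 5 tested of 7 was called, with a median of 0.05 and a range of -0.22 to 0.24. Slc25a12, the aspartate/glutamate carrier found mostly outside the liver, was at 8.27, 8.40 and 8.40 in the WT pools and 8.68, 8.72 and 8.39 in the KO pools. As for Slc25a16, KO pool 3 lay among the WT pools. The difference was 0.24 (limma adjusted p = 0.220) and 0.34 (0.0121) without KO pool 3, while a second, dimmer probe set differed by -0.46 (0.324), and the mean of both gave -0.11.

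Slc25a44, a carrier of branched-chain amino acids, was the 1 member of the group whose KO pools all lay below its WT pools, by -0.22 (limma adjusted p = 0.284) and by -0.18 on its other tested probe set. Slc25a38, which supplies glycine for haem synthesis, Slc25a22, a glutamate carrier, and Slc25a2, an ornithine carrier, differed by 0.13, 0.05 and -0.05. Slc25a18, the other glutamate carrier, was Present on 2 arrays and not tested. Slc25a29, a carrier of basic amino acids, was Absent throughout on its brightest probe set, and its 2 tested probe sets differed by -0.11 and 0.07.

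Carriers of iron and of glutathione, which feed iron-sulphur cluster and haem synthesis and protect the matrix from oxidation, had a median of 0.05 over all 4, none called. Slc25a37, mitoferrin of the developing red cell, had the largest positive difference of the tested members. It was at 8.93, 8.54 and 8.65 in the WT pools and 9.05, 9.35 and 8.84 in the KO pools. KO pool 3 lay below WT pool 1, so the groups overlapped, and the difference was 0.37 (SE 0.12, n = 3, limma adjusted p = 0.0950). The call turned on single pools: the adjusted p was 0.0156 without KO pool 3, 0.0498 without WT pool 1 and 0.427 without KO pool 2.

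Erythroid markers were read beside Slc25a37, since liver still makes red cells early in life. Of 9 listed, 6 had a probe set with a single symbol and 4 were tested. The 1 called (25%, against 7.25% of all tested genes) was Tfrc, the transferrin receptor that many cell types use to take up iron. Tfrc rose by 1.24. Alas2, the haem synthesis enzyme of red cells, differed by -0.24 (limma adjusted p = 0.277), and the red cell transcription factors Klf1 and Gata1 by 0.20 and 0.05. Hba-a1 and Slc4a1 had no Present call on the probe set read. Probe sets with several symbols were not read, so any signal of the listed genes on them is missing from the sums below. The summed linear signal of the list was 1428 to 1506 in the WT pools and 2166 to 2608 in the KO pools. Without Tfrc the other 5 genes summed to 691 to 789 in the WT pools and 648 to 709 in the KO pools, so the higher sum was that of Tfrc. The part of these genes in the Slc25a37 value was not tested. Slc25a28, the mitoferrin of other tissues, differed by 0.05 (interval -0.18 to 0.28).

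Slc25a39 and Slc25a40 import glutathione into mitochondria. Slc25a39 was bright and tightly measured, with a difference of 0.05 (95% interval -0.04 to 0.14) and 4 tested probe sets at 0.05 to 0.13. Slc25a40 was at 5.69, 6.11 and 5.93 in the WT pools and 5.87, 5.60 and 5.35 in the KO pools, the last of these Absent. Its groups overlapped through WT pool 1, and the difference of -0.30 (SE 0.16) had a limma adjusted p of 0.350.

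Among relatives of the uncoupling proteins, 2 of 3 were tested and neither was called. Both had every KO pool below every WT pool, as did 10.8% of all tested probe sets and 1330 of the 10580 tested genes. Slc25a30, known also as the kidney mitochondrial carrier, was at 8.64, 8.57 and 8.65 in the WT pools and 8.25, 8.31 and 8.50 in the KO pools. The WT pools lay close together above all KO pools, and KO pool 3 was the nearest to them. The difference was -0.27 (SE 0.09, limma adjusted p = 0.128) and -0.34 without KO pool 3 (0.0103). All 4 of its tested probe sets were lower, by -0.50 to -0.27.

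Slc25a27, a carrier best known from brain, had the largest negative difference of the tested members. It was at 5.68, 5.85 and 6.03 in the WT pools and 5.44, 5.45 and 5.44 in the KO pools. The 3 KO pools were nearly equal and lay under a spread WT group, with a difference of -0.41 (SE 0.14, limma adjusted p = 0.118). Its other tested probe set differed by -0.22 (0.800). Slc25a14, the related carrier of brain and other tissues, had no Present call. Neither had Ucp1 or Ucp3, classical uncoupling proteins of the same fold, and Ucp2 was not analysed here.

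**Figure D3:**
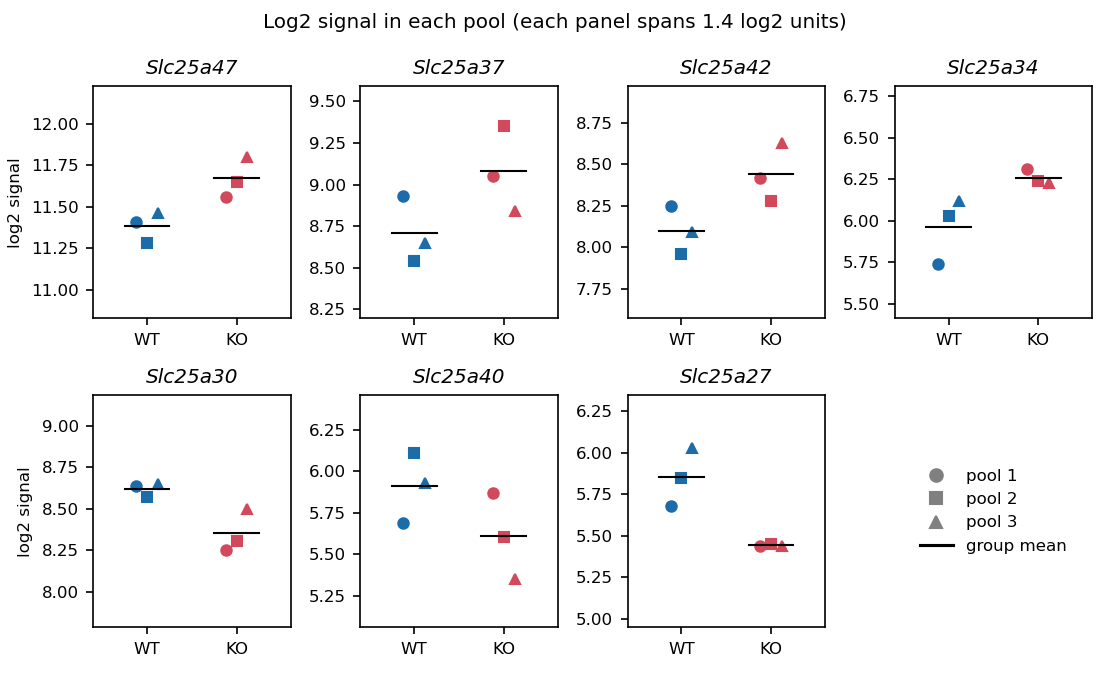
The log2 signal of Slc25a47 and of the 6 uncalled members with the largest differences is shown in each WT and KO pool, with symbols for pool numbers and a line at the group mean, and every panel spans the same log2 range. Groups overlap for Slc25a37 and Slc25a40 and are apart for the other 5. They were apart in 22.4% of all tested probe sets, and the members shown were picked by their call or large difference.

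Members with another or an unsettled substrate held the called Slc25a47 and had a median of 0.21 over 5 tested of 6. Slc25a46, an outer membrane member that takes part in mitochondrial shape, differed by 0.21 (limma adjusted p = 0.193) with KO pools above WT pools, and its other tested probe set by 0.03. Slc25a48, linked to choline transport, differed by 0.26 with overlapping pools (0.350), and its other tested probe set by -0.34. Slc25a45 differed by 0.05. The X-linked Slc25a53, Present on 3 arrays, differed by 0.00 with an interval of -0.57 to 0.57, too wide to bound a change of moderate size. Slc25a54 had no Present call.

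Several members rest on more than 1 probe set. Over all their probe sets, 62 of 87 were tested, and the 1 called was that of Slc25a47. In 14 members more than 1 probe set was tested. All of a member's differences, rounded to the second decimal, shared a sign in 8 of them, among them Slc25a30, Slc25a51 and Slc25a39. In 5 they held both signs: Slc25a12, Slc25a29 and Slc25a48 as given above, Slc25a4 with -0.11 to 0.04 and Slc25a24 with -0.09 and 0.16. In 1, Slc25a5, none was below 0.00.

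KO pool 3 stood lowest more often than the other KO pools. It was the lowest of the KO pools at 17 of the 33 tested members, against 6 for KO pool 1 and 10 for KO pool 2. The same held over all tested probe sets, where KO pool 3 was the lowest at 67.8%, KO pool 1 at 14.1% and KO pool 2 at 18.1%, so it is not particular to the carriers. The median member lay above its WT mean by 0.13 in KO pool 1, 0.10 in KO pool 2 and 0.05 in KO pool 3. Without it, 4 members were called higher (Slc25a47, Slc25a37, Slc25a12 and Slc25a16) and 1 lower (Slc25a30), while the share of all tested probe sets called was 13.4%.

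The 4 carriers left out by the rule are given for scale. Slc25a1, the citrate carrier that exports carbon for lipid synthesis, fell by 0.54 (limma adjusted p = 0.000186), and Slc25a20, the carnitine/acylcarnitine carrier of fatty acid oxidation, rose by 0.38 (0.00129). Slc25a13, the main aspartate/glutamate carrier of liver, and Slc25a15, the ornithine carrier of the urea cycle, differed by 0.17 (0.0943) and 0.09 (0.424).

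SLC25 proteins are made in the cytosol and carried to the inner membrane by the TOM pore, small TIM chaperones and the TIM22 insertase. Of 13 genes of this import machinery, all tested, 3 were called higher and none lower (23.1% called, median 0.14). Over all tested genes 7.25% were called, with a median of 0.02. Timm9, a small TIM chaperone of the intermembrane space, was at 7.48, 7.60 and 7.60 in the WT pools and 8.41, 8.37 and 8.14 in the KO pools. The groups were far apart, and Timm9 rose by 0.75 (SE 0.10, limma adjusted p = 0.000168), with 0.43 (0.133) on its second probe set. Timm8a1 and Timm10, chaperones of the same kind, rose by 0.36 (0.00211) and 0.28 (0.0412). The second Timm8a1 probe set differed by 0.27 (0.0646), uncalled. The Timm8a1 call was lost without the intensity trend (0.0805), and the Timm10 call was lost there (0.182), with no detection filter (0.0635), with the pool number as a block (0.0554) and without 5 of the 6 pools in turn, with an adjusted p of up to 0.261. Timm22, the insertase itself, lay at 7.65 to 7.69 in the WT pools and 7.50 to 7.79 in the KO pools.

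**Figure D4:**
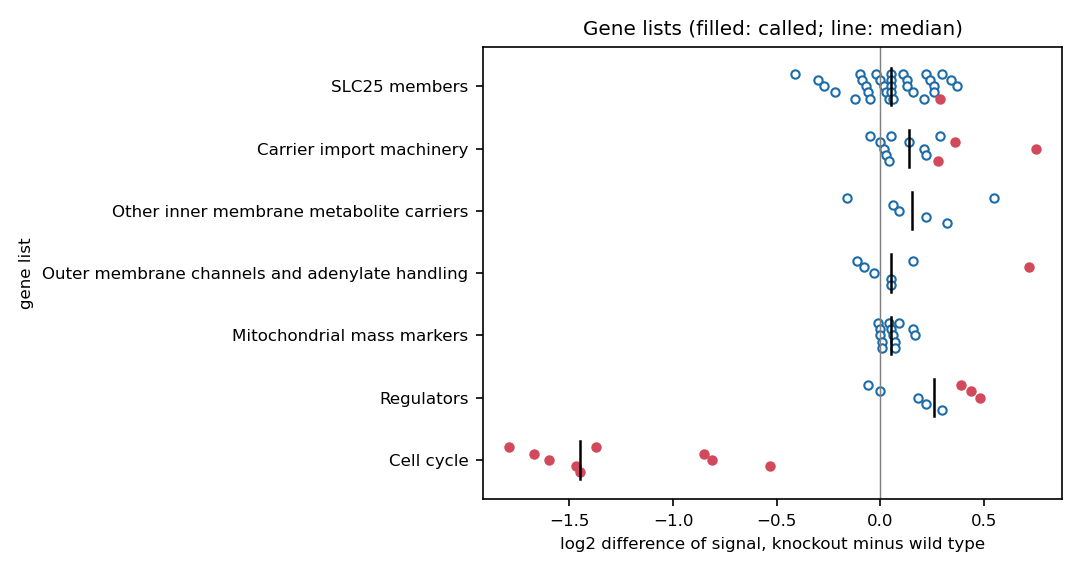
Each circle is the log2 difference, knockout minus wild type, of 1 tested gene, filled where called, with a line at each list's median. The 33 SLC25 members lie around a median of 0.05 with 1 filled, the import machinery around 0.14 with 3 filled, and the 9 cell cycle genes are all filled around -1.45.

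Other genes around the carriers were read the same way, beside 7.25% called and a median of 0.02 over all tested genes. The 13 tested markers of mitochondrial mass, such as respiratory chain subunits, were all uncalled with differences of -0.01 to 0.17, and the 6 tested carriers of other families, such as the pyruvate carrier subunit Mpc1 and the sideroflexins, were uncalled with a median of 0.16. Ak4, an adenylate kinase of the matrix, rose by 0.72 (SE 0.08, limma adjusted p = 2.31e-05) and was the 1 called gene of 7 tested for outer membrane channels and adenylate handling. Another Ak4 probe set was called at 0.77, and a dimmer one was uncalled at 0.36 (0.239). Of 8 regulators of mitochondrial and lipid genes 3 rose: Esrra by 0.48, Ppara by 0.39 and Srebf1 by 0.44, with a list median of 0.26. These 3 calls were lost without the intensity trend (limma adjusted p = 0.0708, 0.123 and 0.131), and that of Esrra also without WT pool 1 (0.122) and without KO pool 1 (0.0518). The second Esrra probe set was uncalled at 0.36 (0.124). All 9 tested cell cycle genes fell, with a median of -1.45, among them the DNA topoisomerase Top2a at -1.79, the cyclin Ccna2 at -1.67, the mitotic survivin gene Birc5 at -1.6, the replication helicase subunit Mcm6 at -1.47 and the kinase Cdk1 at -1.45. Mtch1 and Mtch2, outer membrane proteins of the carrier fold, differed by -0.02 and 0.10, uncalled. Among macrophage markers 1 of 6 tested was called, the receptor Marco, which fell by 0.44, and among stellate and fibroblast markers 2 of 5, the collagen genes Col1a2 (-0.34) and Col3a1 (-0.26). The fat cell gene Fabp4 rose by 0.38 and the pancreatic acinar gene Cela1 fell by 0.66, each the 1 tested gene of its list. Adipoq of the fat cell list and Cpa1 and Ctrb1 of the acinar list had no Present call. All 5 of these marker calls were lost without the intensity trend, at adjusted p of 0.053 (Cela1) to 0.271 (Col3a1), and that of Col3a1 also with no detection filter (0.0883). With 1 pool left out in turn, Marco and Fabp4 were called in 3 of 6 fits, losing the call without WT pool 2, WT pool 3 or KO pool 2. Col1a2 and Col3a1 were called in 2 of 6, both losing the call without WT pool 1, WT pool 2 or KO pool 2, Col1a2 also without WT pool 3 and Col3a1 also without KO pool 3. None of 5 endothelial, 2 cholangiocyte and 2 lymphocyte markers tested was called, and the 4 skeletal muscle and 3 neural markers had no Present call. The part of these shifts in the carrier values was not tested.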

How the data were processed

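Liver RNA of 3 WT and 3 KO pools was hybridised as biotin-labelled cRNA to 1-colour Affymetrix arrays of 45101 probe sets. The submitters' processing notes name MAS5; the sources used here do not state its version, scaling or array settings. The deposited values are log2 signals with MAS5 detection calls, per the file headers, which also hold the authors' p-values, corrected p-values and absolute fold changes between genotypes. The series' value table and the authors' workbook differ by at most 4.91e-07, so only the workbook was used. Symbols came from the platform annotation: 34958 probe sets had 1 symbol, 932 several and 9211 none. Of the first, 34754 were found in RefSeq by Entrez number, and 0 symbols differed. Of 44 Slc25a symbols, 4 were left out by the rule, and 1 probe set shared between Slc25a37 and another gene was not used.

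The 64 control probe sets and those Present on fewer than 3 arrays were left out, since MAS5 signals of undetected probe sets are noisy on the log2 scale. The remainder were tested without further normalization in limma 3.58.1 (R 4.3.3; lmFit and eBayes with an intensity trend, Benjamini-Hochberg adjustment). The fit was tested on simulated data. With 3 pools per genotype, the SE of the tested members ran from 0.04 to 0.27. A limma p sets the genotype difference against the spread between pools, which the fit moderates with an intensity trend over all tested probe sets. Alternatives were a pseudocount of 16, other detection filters, quantile and median scaling, no trend, the pool number as a block, other rules for a gene's probe sets, and leaving out each pool. Values in every pool are given for Dbi, each called member and the 6 uncalled members with the largest difference. Other members are given by group, and pool values of Slc25a4, Slc25a5, Slc25a12, Slc25a16 and Timm9 were added after they were seen. Context genes are named where called, up to 5 a list. The members, gene lists and alternatives were chosen with earlier results of these data known, so no list is independent evidence.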

Additional observations from a re-analysis of the deposited data

How the results depend on the processing

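The number of members called higher, 1 as reported, was 0 with no detection filter, after quantile normalization, after median centring and without the intensity trend, and it ranged from 0 to 4 when each pool was left out (0 without WT pool 2, 2 without WT pool 1, 4 without KO pool 3). The number called lower, 0 as reported, stayed 0 in the other settings and ranged from 0 to 1 with each pool left out (1 without KO pool 3). Over all probe sets, 1277 were called as reported, 378 without the intensity trend, and 639 (without WT pool 1) to 3010 (without KO pool 3) with a pool left out. With the pool number as a replicate block, 2 members were called higher, Slc25a37 (limma adjusted p = 0.0431) and Slc25a47 (0.00464), and 1370 probe sets in all. Taken over all tested probe sets, same-numbered pools did not deviate together (r = -0.03, -0.01 and -0.08). Such a correlation cannot show whether some genes follow the pool number, so it does not exclude a pairing. The reported fit treats the numbers as names. The mean of its tested probe sets turned Slc25a12 from 0.24 to -0.11, uncalled in both. The pseudocount, the filter of Present on all 6 arrays and the other rules for a gene's probe sets left the counts of called members at 1 and 0. Reading the brightest tested probe set was chosen after seeing the data. Slc25a47 has a single probe set, so the rules for a gene's probe sets could not change it. The repeat on the series' value table was not run, as its values equal the workbook's. The cause of these changes was not tested.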
